A study of Mus musculus with 16 samples.

Results

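The chemokine ligands are 36 mouse genes of the Ccl, Cxcl, Cx3cl and Xcl families, with Pf4 and Ppbp. They were followed in white fat (white adipose tissue, WAT) and brown fat (BAT) of GR-knockout and control mice. A probe belonged to the set when its RefSeq transcript accession mapped to a listed gene. This held for 42 of 41174 probes on the array and gave 35 of the 36 ligands; none was named for Cxcl11. A total of 32 ligands were measured above background often enough to be tested, among 25105 genes and unnamed probes in all.

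The study measured RNA of female mice on 16 one-colour microarrays, 4 in each of 4 groups. The groups were GR-knockout WAT, control WAT, GR-knockout BAT and control BAT. The knockout removes the glucocorticoid receptor (GR, gene Nr3c1), the nuclear receptor through which corticosterone acts, in adipose tissue. Controls are called wild type in the study design. The driver of the deletion, the deleted part of the gene, the strain, the age and the fat pad were not given in the sources used here. The level of a gene was its signal on a log2 scale, set relative to the upper quartile (75th percentile) of its array, so that a difference of 1 is a doubling and a negative level lies below that percentile. Differences are knockout minus control, or BAT minus WAT, with their standard error (SE), and a gene was called when its adjusted p from limma was under 0.05.

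Chemokines are small secreted proteins that draw leukocytes along a concentration gradient by binding G protein-coupled receptors on their surface. The inflammatory members are induced by cytokines through NF-kB and interferon-activated factors, while homeostatic members hold lymphocytes, stem cells and dendritic cells in their niches. In adipose tissue, Ccl2 and related ligands are known for bringing in monocytes, and glucocorticoids are known for lowering the transcription of many inflammatory ligands in leukocytes and stromal cells.

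The 75th percentile of the signal was between 298 and 1035 intensity units over the 16 arrays. Precision is limited by how few arrays there were. The arrays of knockout WAT 1 and 2 differed by little more than spot noise (SD of the log2 difference 0.0914, against a spot noise of 0.0878 and at least 0.220 in any other pair) and were averaged to 1 sample, called knockout WAT 1-2, leaving n = 3. Nr3c1 levels were 1.36 to 1.64 in knockout WAT and 1.93 to 2.56 in control WAT, and 1.30 to 1.76 in knockout BAT and 2.33 to 2.70 in control BAT. Neither difference (-0.66 in WAT, adjusted p = 0.210; -1.03 in BAT, adjusted p = 0.0814) passed the limma test, although the groups did not overlap. Of the 3 other Nr3c1 probes, all overlapped in WAT, 1 with a higher mean in the knockout (-4.35, against -4.59), and 2 lay below every control in BAT. The 8 brown adipocyte markers listed were all called higher in BAT than in WAT in both genotypes. Knockout WAT 4 stood apart from knockout WAT 1-2 and 3 in lymphocyte markers, and control WAT 1 and 4 carried intestinal transcripts. Every slide held an array of each group at a position of its own, so position and group cannot be told apart. Over all 25105 features the median difference was 0.24 in knockout against control WAT and 0.10 in knockout against control BAT. Of these differences, 66.5% were positive in WAT and 60.2% in BAT, which is the background for the counts of signs below.

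In knockout WAT, 4 ligands of myeloid cells and platelets, Ccl6, Ccl8, Pf4 and Ppbp, measured between 4.53-fold and 6.09-fold lower than in control WAT, with no overlap between the groups. The interferon-induced ligand Cxcl9 measured 1.77-fold higher, also without overlap. None of the 32 ligands passed the limma test in this comparison (smallest adjusted p = 0.140). Of all 25105 features, 15, or 0.0597%, were called there (0.0398% lower, 0.0199% higher). An unadjusted limma p under 0.05 was reached by 12 of the 32 ligands and by 17.9% of all features. The differences were positive for 17 ligands and negative for 15, when 66.5% of all features had positive ones. The ligands' median was 0.05, against 0.24 over all features. The sign of the ligands' median was not stable: it was -0.02 with quantile normalization, and -0.33, -0.16 and 0.32 without knockout WAT 1-2, 3 and 4. The groups did not overlap for 7 ligands, 21.9%, of which 6 were lower and 1 was higher in the knockout; the share over all features was 7.7%, with 1.23% lower and 6.47% higher. In whole tissue, fewer cells of a type and less RNA per cell cannot be told apart.

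Among the monocyte and macrophage attractants, Ccl6 is a rodent ligand of Ccr1 made mainly by myeloid cells. Its level was 0.15, 0.58 and 2.71 in knockout WAT 1-2, 3 and 4, against 4.20, 4.35, 2.87 and 3.59 in control WAT 1 to 4. Knockout WAT 4 lay just under the lowest control, and the other knockout samples lay far below it. The difference was -2.61 ± 0.55 (adjusted p = 0.140). Ccl8, in the mouse a ligand of Ccr8, had levels of -1.78, -1.83 and -2.66 in knockout WAT, against 0.10, 0.74, -0.34 and -0.15 in control WAT. Here every knockout sample was well below every control, with knockout WAT 4 the lowest. This gave -2.18 ± 0.46 (adjusted p = 0.140). Ccl7, a ligand of the monocyte receptor Ccr2, had levels of -2.51, -1.85 and -1.98 in knockout WAT and -1.23, -1.47, -1.72 and -1.68 in control WAT. The groups lay close together without overlapping, at a difference of -0.59 ± 0.27 (adjusted p = 0.273); a second Ccl7 probe gave -1.04.

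The platelet chemokine Pf4, also known from macrophages, had levels of 0.46, 0.81 and 3.12 in knockout WAT and 4.04, 4.59, 3.19 and 3.53 in control WAT. As for Ccl6, knockout WAT 4 was just under the lowest control. Its difference was -2.38 ± 0.51 (adjusted p = 0.140). Ppbp, the precursor of a neutrophil-activating peptide stored in platelets, had levels of -5.16, -5.54 and -2.83 in knockout WAT and -2.16, -2.15, -1.77 and -1.77 in control WAT. It was well above background on 2 of the 4 knockout WAT arrays and on all 4 control WAT arrays. All knockout samples were below all controls, at -2.55 ± 0.55 (adjusted p = 0.146). Cxcl9, a ligand of the T cell receptor for chemokines Cxcr3 that interferon gamma induces, had levels of 1.44, 1.14 and 1.55 in knockout WAT and 0.03, 0.52, 0.95 and 0.73 in control WAT. The 3 knockout samples lay close together and above every control, at 0.82 ± 0.23 (adjusted p = 0.200).

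**Figure D1:**
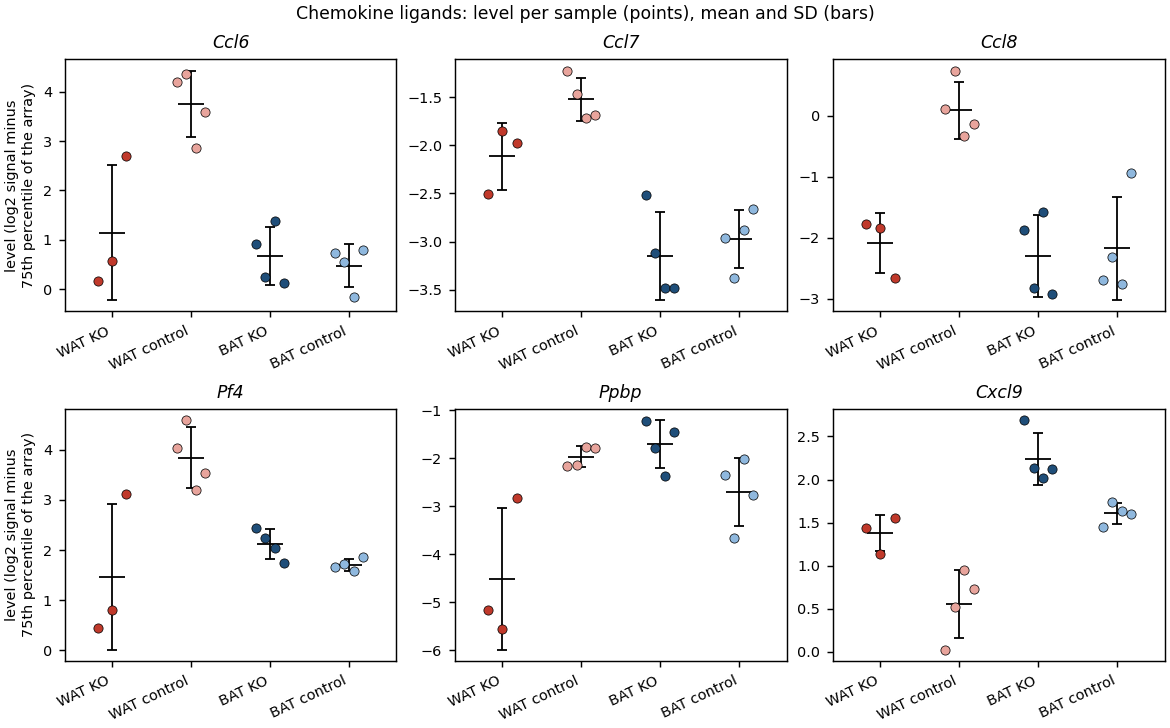
Levels (log2 signal relative to the 75th percentile of each array) of the 6 ligands with the largest differences among those whose WAT groups did not overlap, per sample in knockout WAT, control WAT, knockout BAT and control BAT. Points are samples, and bars are the mean and SD (n = 3 in knockout WAT, 4 elsewhere). Ccl6, Ccl7, Ccl8, Pf4 and Ppbp lay lower and Cxcl9 higher in every knockout WAT sample than in every control WAT sample.

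Within the 4 slides, knockout minus control in WAT ran between -4.18 and -0.16 for Ccl6, between -2.48 and -1.67 for Ccl8, and between -4.13 and -0.07 for Pf4. Ppbp ran between -3.49 and -1.06 and Cxcl9 between 0.60 and 1.12. The sign was the same on all 4 slides for these ligands, with the slide that held knockout WAT 4 giving the smallest gap for Ccl6, Pf4, Ppbp and Cxcl9. With slide as a block the differences were -2.66, -2.24, -2.29, -2.54 and 0.78 for Ccl6, Ccl8, Pf4, Ppbp and Cxcl9 (adjusted p between 0.270 and 0.306). With normexp background correction Ppbp differed by -0.94 and Ccl8 by -1.39.

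The windows around the start sites of these ligands are shown because the genes lay apart from their controls together. That of Ccl7, which also lay apart, is not shown. The Cxcl10 window is added because it holds exact matches to the interferon and NF-kB motifs searched. The other windows shown hold none of these, and near-matches were not searched. Each runs from 250 bases before to 50 bases after a RefSeq start (GRCm38.p6), 5′ to 3′ on the strand of the gene. Capitals mark matches to 5 motifs searched on both strands: an NF-kB site, the interferon-stimulated response element (TTTCNNTTTC), the gamma-activated site (TTCNNNGAA), the GR hexamer AGAACA and the ETS core GGAAGT. Windows lie at chr11:83593038-83593337 (minus strand), chr11:82114935-82115234 (plus strand), chr5:90772185-90772484 (plus strand), chr5:90768268-90768567 (plus strand), chr5:92328030-92328329 (minus strand) and chr5:92348840-92349139 (minus strand).
Ccl6: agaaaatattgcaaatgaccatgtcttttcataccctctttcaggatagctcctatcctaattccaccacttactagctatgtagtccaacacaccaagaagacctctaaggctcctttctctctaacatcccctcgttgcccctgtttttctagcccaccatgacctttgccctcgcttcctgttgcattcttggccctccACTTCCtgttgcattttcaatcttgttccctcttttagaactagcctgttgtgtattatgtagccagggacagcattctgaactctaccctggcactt
Ccl8: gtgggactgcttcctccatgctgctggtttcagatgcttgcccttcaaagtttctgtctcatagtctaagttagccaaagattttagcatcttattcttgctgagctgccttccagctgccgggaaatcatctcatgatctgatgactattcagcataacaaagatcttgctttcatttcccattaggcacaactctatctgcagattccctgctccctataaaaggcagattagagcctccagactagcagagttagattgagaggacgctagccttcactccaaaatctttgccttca
Pf4: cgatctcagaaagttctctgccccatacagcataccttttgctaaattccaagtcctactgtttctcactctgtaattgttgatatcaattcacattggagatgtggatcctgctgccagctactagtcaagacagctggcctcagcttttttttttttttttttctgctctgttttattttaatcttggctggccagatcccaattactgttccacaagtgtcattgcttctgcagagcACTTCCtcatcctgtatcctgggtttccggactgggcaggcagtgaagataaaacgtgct
Ppbp: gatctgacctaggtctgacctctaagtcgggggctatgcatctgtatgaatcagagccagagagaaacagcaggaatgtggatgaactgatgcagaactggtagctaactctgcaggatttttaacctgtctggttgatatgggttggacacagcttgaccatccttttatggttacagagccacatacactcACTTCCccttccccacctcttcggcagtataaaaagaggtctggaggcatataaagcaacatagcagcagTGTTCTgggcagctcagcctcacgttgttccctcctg
Cxcl9: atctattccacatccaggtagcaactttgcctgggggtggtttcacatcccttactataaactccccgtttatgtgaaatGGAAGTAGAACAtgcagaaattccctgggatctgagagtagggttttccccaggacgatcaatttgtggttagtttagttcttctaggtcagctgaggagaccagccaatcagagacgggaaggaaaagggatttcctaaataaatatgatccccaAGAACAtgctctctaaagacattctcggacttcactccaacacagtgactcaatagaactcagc
Cxcl10: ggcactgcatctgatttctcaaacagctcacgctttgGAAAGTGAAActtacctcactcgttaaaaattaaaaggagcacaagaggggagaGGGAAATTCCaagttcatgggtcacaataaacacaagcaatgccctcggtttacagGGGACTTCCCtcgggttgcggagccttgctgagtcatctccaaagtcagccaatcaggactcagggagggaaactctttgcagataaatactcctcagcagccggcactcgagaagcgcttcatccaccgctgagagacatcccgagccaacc
The Ccl8 window held no match to any of the motifs. An ETS core, which factors of the myeloid and megakaryocyte lineages bind, was in the windows of Ccl6, Pf4 and Ppbp, at -48, -10 and -57 bases from the start, and in those of Cxcl9 and Cxcl10. It occurred in 14 of 30 ligand windows (27 ligands had a window) and in 23.8% of all 32851 windows. GR hexamers were in the Ppbp window and, as 2 copies, in the Cxcl9 window; 5 ligand windows and 19% of all windows held them. Cxcl10 held an interferon element and 2 NF-kB matches, the second of which overlaps its ETS core. NF-kB matches were in 7 ligand windows and 4.51% of all windows, interferon elements in 3 and 3.44%, and gamma-activated sites in 2 and 8.3%.

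Of the 35 located ligands, 12 lie on chromosome 11 and 11 on chromosome 5. Ppbp and Pf4 are direct neighbours on chromosome 5, between Cxcl5 and Cxcl3, and Cxcl5 measured higher in knockout WAT, while both of them measured lower. Ccl9, Ccl6 and Ccl3 are consecutive on chromosome 11, with differences of -2.10, -2.61 and 0.38. In the adjacent row Ccl2, Ccl7, Ccl11, Ccl12, Ccl8 and Ccl1, the differences were -0.43, -0.59, -1.34, -0.19, -2.18 and 1.19.

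Other ligands of the monocyte and macrophage group overlapped between the WAT groups, apart from Ccl2. The main monocyte attractant Ccl2 had levels of -0.0007 to 0.55 in knockout WAT and 0.56 to 1.0 in control WAT, a difference of -0.43 ± 0.26 (adjusted p = 0.349). Its groups all but touched, and were without overlap only after averaging. Knockout WAT array 1 alone was at 0.563, above the lowest control at 0.556. Ccl9, another Ccr1 ligand, had -0.41, -0.24 and 1.5 in knockout WAT and 1.49 to 3.14 in control WAT (-2.10 ± 0.47, adjusted p = 0.148). Ccl3, Ccl4 and Ccl5, which draw monocytes and T cells, differed by 0.38, 0.36 and 0.55, and Ccl12 by -0.19. In the group of 9, 6 had negative differences and 3 positive, with a median of -0.43.

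The eotaxins Ccl11 and Ccl24, which draw eosinophils through Ccr3, differed by -1.34 and -2.52 (adjusted p = 0.218 and 0.157). Their knockout WAT levels ran from -1.13 to 1.36 and from -2.04 to 1.10, against 0.96 to 1.68 and 1.0 to 2.43 in control WAT. For each, knockout WAT 4 lay among the controls and the other knockout samples far below them. A second Ccl24 probe gave -2.19.

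Of the neutrophil attractants besides Ppbp, Cxcl5 was well above background on 3 of 4 knockout WAT arrays and on 0 of 4 control WAT arrays. Its levels were -3.64, -3.98 and -7.04 in knockout WAT, and the measured means were -4.89 and -7.35 in knockout and control WAT. The groups overlapped, with knockout WAT 4 among the controls, and with normexp the fitted difference was 0.51. Set against the lowest signal well above background, Cxcl5 was on average at least 1.38-fold higher in knockout WAT (adjusted p = 0.177). Such a bound compares the group mean with the lowest detectable level of each dim array. Cxcl1 and the lung-enriched Cxcl15 differed by 0.32 and 0.38. Cxcl2 and Cxcl3 were well above background on 0 and 1 of the 4 knockout WAT arrays and on 0 and 1 of the 4 control WAT arrays, and were not tested.

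The lymphoid ligands varied far more within the WAT groups than between them. Ccl19, which guides dendritic cells and T cells through Ccr7, had levels of 6.72, 6.47 and 1.53 in knockout WAT and 1.32, 1.45, 5.51 and 4.91 in control WAT (1.61 ± 1.19, adjusted p = 0.423). Cxcl13, the follicle chemokine of B cells, had levels of 3.65, 3.33 and -3.93 in knockout WAT and -0.71 to 2.81 in control WAT (0.04 ± 1.52). Knockout WAT 4 lay near the 2 lower controls for Ccl19 and below every control for Cxcl13, while knockout WAT 1-2 and 3 lay above every control. Ccl21a, the other Ccr7 ligand, ran from 2.33 to 6.52 in 2 knockout samples (knockout WAT 3 had no usable spot and was left out of its fit) and from 2.58 to 5.13 in control WAT. Ccl19, Ccl21a and Ccl27a have near-identical copies in the mouse genome, so their signal may include copies. Cxcl12, which retains leukocytes and stem cells through Cxcr4, differed by 0.05.

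B cell markers followed the same samples: the list of 9 genes had a median deviation of 5.13, 4.87 and -1.26 in knockout WAT 1-2, 3 and 4, against -0.05, -0.55, 3.74 and 3.06 in control WAT 1 to 4. All 9 had positive differences, and none was called. The T and NK cell list, 9 of 10 genes positive, gave 2.97, 2.85 and -0.90 in knockout WAT and 0.07, -0.69, 1.92 and 1.74 in control WAT. Lymph node stroma markers gave 0.24 to 2.07 in knockout WAT and 0.15 to 1.13 in control WAT. Each list level was obtained by centring its genes on their average across samples, on a log2 scale, and taking the median gene. The part of lymphoid content in the ligand levels was not tested.

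Lists of other cell types were set beside the myeloid ligands, and 3 of them did not overlap between the WAT groups. The macrophage list, 11 of 12 genes negative and 5 of them without overlap, gave 0.15 to 0.33 in knockout WAT and 0.90 to 1.67 in control WAT. The mast cell and eosinophil list (6 of 10 genes measured, 5 negative, 1 called lower) gave -1.62 to -0.12 in knockout WAT and 1.03 to 1.77 in control WAT. Mesothelial markers (7 of 8 measured, all negative, 1 called) gave -1.16 to 2.92 in knockout WAT and 3.46 to 4.71 in control WAT. The other lists overlapped. Fibroblast markers, 8 of 9 negative, gave -0.95 to 0.79 and 0.13 to 1.68, and the 12 adipocyte markers, all negative, gave -1.98 to 0.78 and -0.50 to 0.21, in knockout WAT and control WAT. The platelet and megakaryocyte list, 4 of 7 negative, stood at -0.40 to 0.61 in knockout WAT and -0.42 to 0.88 in control WAT. Other myeloid lists were mostly positive. Dendritic cell markers, 8 of 9 positive, stood at 2.52, 2.28 and -0.30 in knockout WAT 1-2, 3 and 4. In control WAT they stood at 0.80 to 0.94. Neutrophil markers (9 of 10 measured, 7 positive) stood at -0.12 to 0.85 in knockout WAT and -0.40 to 0.72 in control WAT. The part of these cell types in the ligand differences was not tested.

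The count of ligands called in WAT depended on knockout WAT 4 and on the averaging of arrays 1 and 2. With these arrays counted as 2 samples, 7 of 32 ligands were called, as were 278 of all 25105 features. Without knockout WAT 4, in a fit with 2 knockout WAT samples, 18 of 32 ligands were called, 28.1% higher and 28.1% lower, against 20.8% higher and 15.9% lower among all features. The 9 called higher were Cxcl5, Ccl19, Ccl21a, Ccl22, Xcl1, Cxcl10, Ccl3, Cxcl16 and Cxcl9. The 9 called lower were Ccl24, Ppbp, Ccl6, Pf4, Ccl9, Ccl11, Ccl8, Cxcl14 and Ccl27a, with Pf4 at -3.20, Ccl6 at -3.39 and Ccl8 at -1.90. The sample was left out after its values were seen, and of the 15 samples it was the only such omission that gave any ligand call in this comparison.

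**Figure D2:**
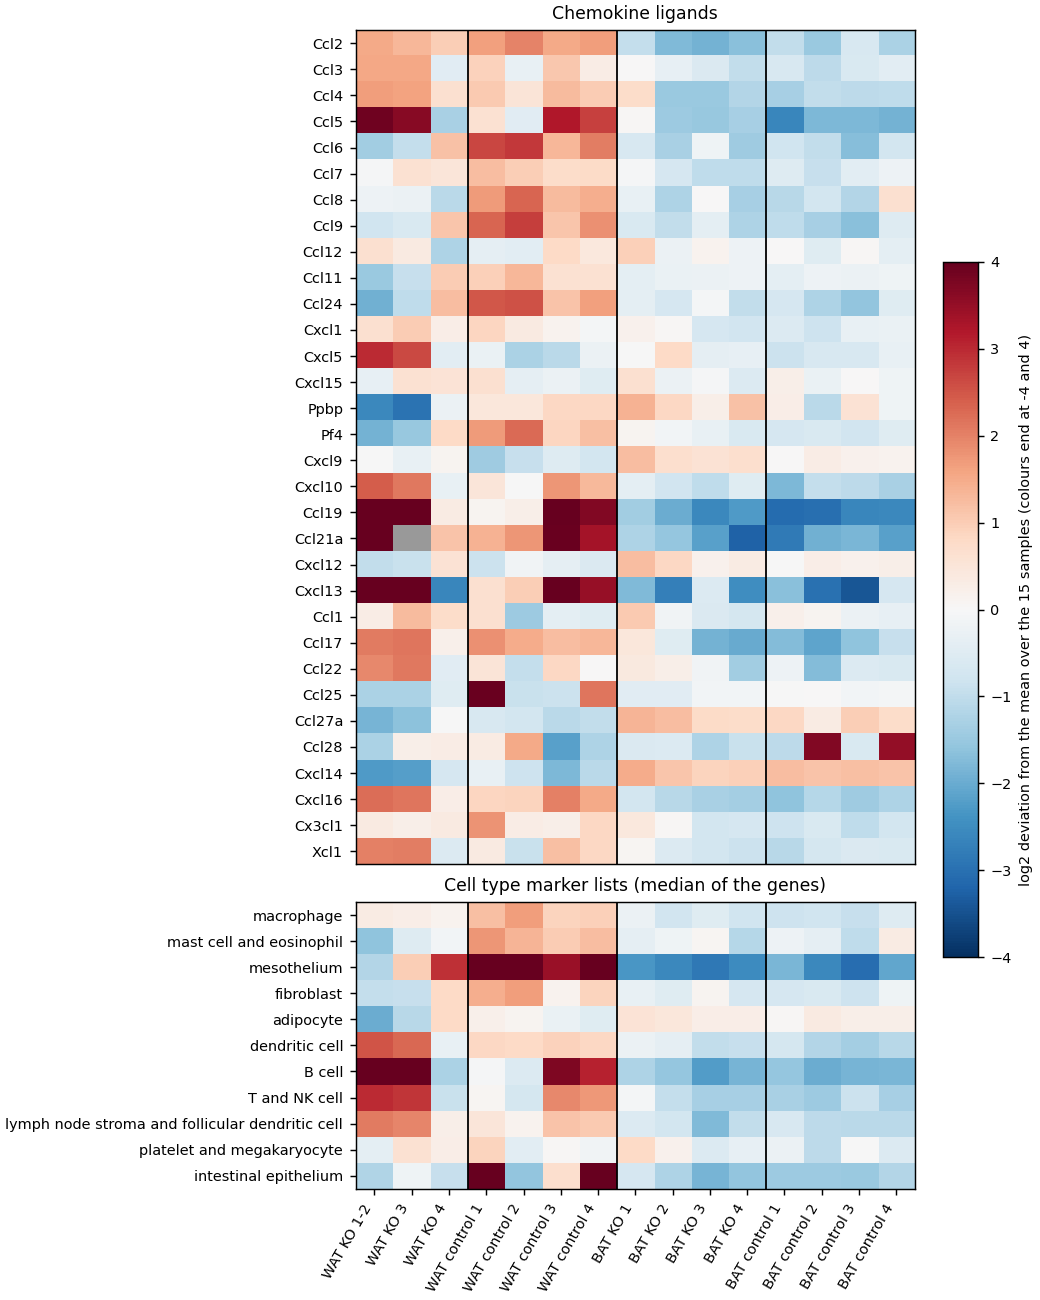
Deviation of each ligand from its mean over the 15 samples (upper panel) and median deviation of the marker lists (lower panel), on a log2 scale with colours ending at -4 and 4. The missing Ccl21a spot of knockout WAT 3 is grey. Samples run from knockout WAT and control WAT on the left to knockout BAT and control BAT. Knockout WAT 1-2 and 3 share high Ccl19 and Cxcl13 and low Ccl6, Ccl9, Ccl24 and Pf4, while knockout WAT 4 lies with them below the controls for Ccl8 and above for Cxcl9.

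None of the remaining ligands was called in WAT. The Ccr4 ligands Ccl17 and Ccl22, which draw type 2 helper and regulatory T cells, differed by -0.0044 and 1.09, and the Ccr8 ligand Ccl1 by 1.19 (adjusted p = 0.255). The gut ligand Ccl25, which acts through Ccr9, had levels of -0.07, -0.07 and 0.74 in knockout WAT and 5.16, 0.30, 0.35 and 3.35 in control WAT. Both high controls carried intestinal transcripts, whose list stood at 7.14 and 5.67 there, 0.67 and -1.58 in the other controls, and -1.22 to -0.17 in knockout WAT. The part of these transcripts in the Ccl25 difference (-2.09 ± 0.88, adjusted p = 0.261) was not tested. The Ccr10 ligands Ccl27a and Ccl28 differed by -0.30 and 0.14, Cxcl14 by -0.72, the membrane-bound Cxcl16 and Cx3cl1 by 0.23 and -0.47, and the lymphocyte product Xcl1 by 0.80. Ccl20, a Ccr6 ligand, was well above background on 2 of 4 knockout WAT and 2 of 4 control WAT arrays and was not tested.

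In knockout BAT, 3 ligands lay above every control: Cxcl9, Ccl5 and Ccl19. None of the 32 was called by limma (smallest adjusted p = 0.246), and 0.0159% of all features were (0.00797% higher and 0.00797% lower). At an unadjusted limma p under 0.05 there was 1 ligand, against 13.1% of all features. Differences were positive for 23 ligands and negative for 9, when 60.2% of all features had positive ones. The ligands' median was 0.27, against 0.10 over all features. Without knockout BAT 1 these medians were 0.11 and 0.009, and without knockout BAT 1 and 2, which had the lowest 75th percentiles of all arrays, that of the ligands was 0.02. The share without overlap was 9.38%, all 3 of them higher, against 18% of all features, 9.35% higher and 8.62% lower.

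Cxcl9 had levels of 2.69, 2.14, 2.01 and 2.12 in knockout BAT 1 to 4 and 1.45, 1.73, 1.63 and 1.60 in control BAT 1 to 4. The lowest knockout was above the highest control, at 0.63 ± 0.21 (adjusted p = 0.246), so that Cxcl9 was the ligand without overlap on the higher side in both depots. Within the slides it was higher by 0.50 to 0.96 in knockout BAT. The T cell attractant Ccl5 had levels of 2.09, 0.60, 0.53 and 0.73 in knockout BAT and -0.55, 0.27, 0.27 and 0.17 in control BAT. Knockout BAT 1 lay far above the rest and control BAT 1 far below (0.95 ± 1.02, adjusted p = 0.772). Ccl19 had levels of -0.18, -0.80, -1.36 and -1.05 in knockout BAT and -1.89, -1.82, -1.42 and -1.39 in control BAT. Its groups all but touched, at 0.78 ± 1.10 (adjusted p = 0.843). A second Ccl19 probe overlapped between the groups, with a difference of 0.39.

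Of the ligands with the largest differences in WAT, Ccl6, Ccl8 and Pf4 differed by 0.19, -0.13 and 0.41 in knockout BAT. Ppbp had the largest positive difference of the 32 ligands there, 1.0 ± 0.51 (adjusted p = 0.424). Their macrophage list stood at -0.78 to -0.24 in knockout BAT and -0.91 to -0.53 in control BAT, overlapping. Skeletal muscle markers, 11 of 11 positive, stood at 2.61 to 5.29 in knockout BAT and -1.07 to 3.02 in control BAT. Endothelial markers, 10 of 12 positive and 3 above every control, stood at 0.05 to 0.98 and 0.01 to 0.07, and T and NK markers, 8 of 10 positive and 2 above every control, at -1.34 to -0.07 and -1.45 to -0.84, in knockout BAT and control BAT. None of these markers was called, and their part in the ligand differences was not tested. Cxcl10 differed by 0.61, Cx3cl1 by 0.57, Cxcl12 by 0.46 and Ccl2 by -0.47. Ccl17 was well above background on 2 of 4 knockout BAT arrays and 0 of 4 control BAT arrays. Its levels were -3.26, -4.17, -5.58 and -5.71 in knockout BAT 1 to 4 and -5.79 to -4.63 in control BAT, overlapping. Knockout BAT 1 and 2 had the lowest 75th percentiles of all arrays. On average Ccl17 was at least 1.20-fold higher in knockout BAT (adjusted p = 0.698), a bound on the means alone.

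The difference between depots in the knockout effect was tested for every ligand. None passed limma's interaction test (smallest adjusted p = 0.347), where 0.00398% of all features were called. An unadjusted p under 0.05 in that test was reached by 7 ligands and by 10.4% of all features. The largest BAT-minus-WAT differences of the knockout effect were 3.55 ± 0.75 for Ppbp, 2.99 ± 0.81 for Ccl24, 2.79 ± 0.75 for Ccl6 and 2.79 ± 0.69 for Pf4. Ccl9 and Ccl8 followed at 2.43 and 2.05 (adjusted p = 0.355 and 0.373). For Cxcl9 the value was -0.19 ± 0.32. Without knockout WAT 4, 8 ligands were called, as were 4055 of all 25105 features.

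**Figure D3:**
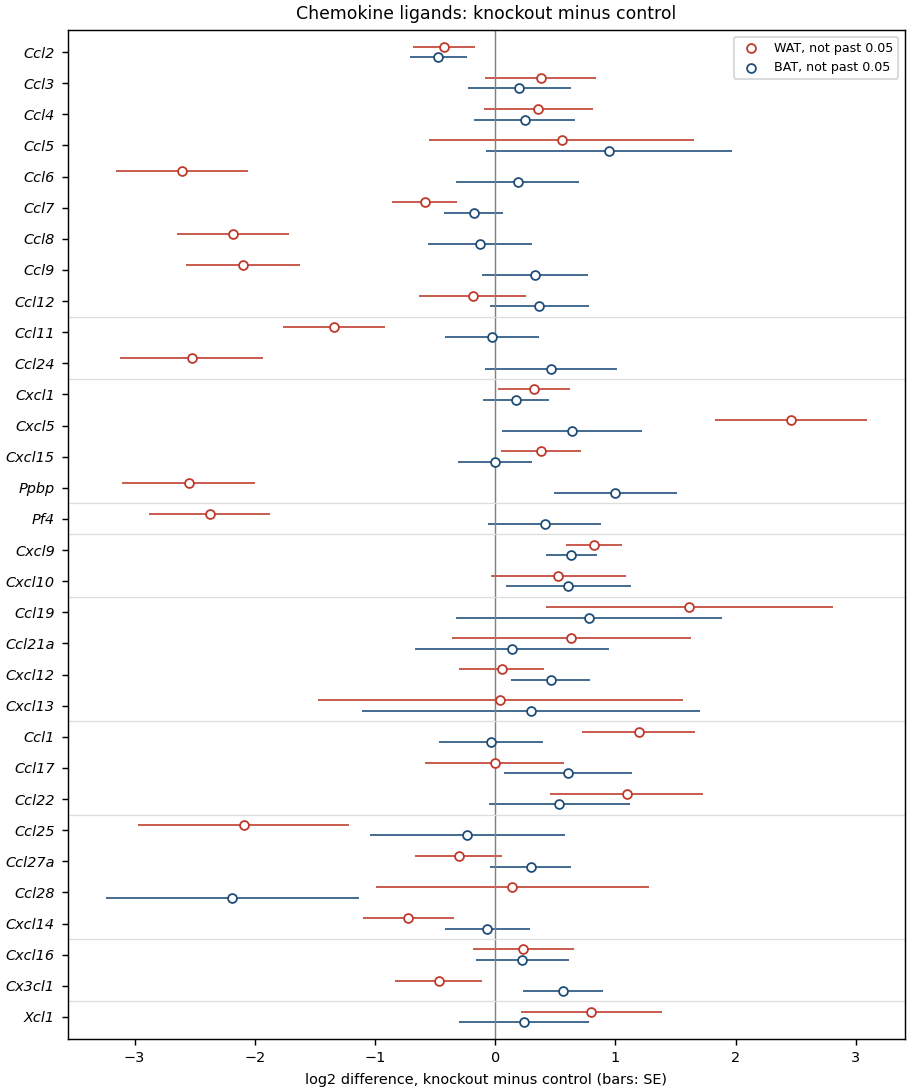
Log2 difference, knockout minus control, of the 32 ligands tested, ordered by role, in WAT and BAT (points), with bars of 1 SE. Open symbols are differences that did not pass an adjusted p of 0.05, which is all of them. Ccl6, Ccl8, Ccl9, Ccl24, Ppbp and Pf4 lie below -2 in WAT and between -0.13 and 1.0 in BAT.

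Brown fat carried less RNA than white fat of most lymphoid ligands and of several monocyte ligands, and more of Cxcl14, Ccl27a and Cxcl9, in both genotypes. Both eosinophil ligands were called lower in BAT in controls and neither was called in knockouts. In controls, 19 ligands were called lower and 3 higher in BAT than in WAT, out of 32, when 33.4% of all features were called (14.3% lower, 19.1% higher). The median difference of the ligands was -1.31, against 0.11 over all features, and the depots did not overlap for 71.9% of ligands (4 higher, 19 lower) and 43.3% of features (24.8% higher, 18.5% lower). In knockouts, 13 were called lower and 5 higher in BAT, when 30.6% of all features were called (13.9% lower, 16.7% higher), with a median of -0.79 against -0.09. These 18 calls became 9 without knockout WAT 3, 11 without knockout WAT 1-2, 7 with knockouts fitted alone and 8 with normexp, where the ligands' median was -0.27. Without overlap were 37.5% of the ligands (5 higher, 7 lower) and 25.5% of the features (14.8% higher, 10.7% lower) in knockouts. Macrophage markers were lower in BAT too, with 12 of 12 called in controls and 7 of 12 in knockouts, and their part in the ligand differences was not tested.

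Among controls, Ccl2 had levels of -1.96, -2.46, -1.61 and -2.25 in BAT and 0.67, 1.0, 0.56 and 0.70 in WAT. The depots were far apart relative to their spread, a 6.98-fold lower level in BAT (-2.80 ± 0.24, limma adjusted p = 2.23e-06). In knockouts it had -1.93, -2.73, -2.85 and -2.65 in BAT and 0.55, 0.37 and -0.0007 in WAT, with the same separation (-2.85 ± 0.26, adjusted p = 5.74e-06). The within-slide differences ran from -3.14 to -2.51 in controls and from -3.27 to -2.30 in knockouts.

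Ccl6 in control BAT stood at 0.73, 0.54, -0.17 and 0.80, against 4.20, 4.35, 2.87 and 3.59 in control WAT. It was lower in every BAT sample (-3.27 ± 0.51, adjusted p = 0.000256), but in knockouts the depots overlapped (-0.48 ± 0.55, adjusted p = 0.573). Ccl9 had levels of -0.62, -0.96, -1.30 and -0.14 in control BAT and 2.70, 3.14, 1.49 and 2.21 in control WAT. Here too the controls were apart (-3.14 ± 0.44, adjusted p = 0.000112) and the knockouts overlapped (-0.71 ± 0.47, adjusted p = 0.299). Ccl8, Ccl11, Ccl24, Pf4 and Cx3cl1 were likewise called lower in BAT in controls and not called in knockouts. The interaction tests above give the differences between these contrasts, none of which passed. Within slides, control differences ran from -4.52 to -2.13 for Ccl6 and from -4.44 to -2.11 for Ccl9.

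Cxcl16, the membrane-bound ligand of Cxcr6, had levels of -2.19, -1.70, -1.99 and -1.80 in control BAT and 0.29, 0.33, 1.44 and 0.94 in control WAT. The drop was 6.37-fold (-2.67 ± 0.39, adjusted p = 0.000153). Knockout BAT had -1.29, -1.69, -1.86 and -1.93, and knockout WAT 1.66, 1.58 and -0.29. All knockout BAT samples lay below all knockout WAT samples (-2.68 ± 0.42, adjusted p = 0.000409), with knockout WAT 4 the nearest. A second Cxcl16 probe gave -1.68 in controls and -2.13 in knockouts. Within slides the difference was between -3.63 and -1.99 in controls and between -3.64 and -1.57 in knockouts.

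Ccl21a in knockouts had levels of -0.06, -0.36, -0.99 and -2.05 in BAT and 6.52 and 2.33 in the 2 WAT samples that gave a value. The depots were apart (-5.29 ± 0.99, adjusted p = 0.00176), and the value ran from -7.38 to -3.19 when a sample was left out, with 1 WAT sample remaining at either end. Ccl19 and Cxcl13 were lower in BAT as well, with differences of -4.93 and -4.49 in controls (adjusted p = 0.00359 and 0.0245). B cell markers moved with them, with 5 of 9 called lower in control BAT and 7 of 9 in knockout BAT, and their part was not tested.

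The epithelial ligand Cxcl14, which brown adipocytes also secrete, went the other way. Its levels were 2.38, 2.26, 2.33 and 2.28 in control BAT and 0.84, 0.30, -0.66 and 0.06 in control WAT. BAT was above WAT in every sample with little spread among the BAT samples (2.17 ± 0.35, adjusted p = 0.000336). In knockouts it had 2.63, 2.24, 2.03 and 2.10 in BAT and -1.14, -1.07 and 0.45 in WAT, again apart (2.83 ± 0.38, adjusted p = 0.000127). Ccl27a, a ligand of Ccr10 best known from skin, had levels of 2.14, 2.02, 1.54 and 1.52 in knockout BAT and -1.07, -0.87 and 0.78 in knockout WAT. Every BAT sample was above every WAT sample (2.19 ± 0.36, adjusted p = 0.00062), and in controls the difference was 1.59 (adjusted p = 0.00242). Within slides Cxcl14 was higher in BAT by 1.42 to 3.04 in controls and by 1.57 to 3.69 in knockouts, and Ccl27a by 0.99 to 1.93 and by 0.76 to 3.11.

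Cxcl9 was higher in BAT in both genotypes (1.05 in controls, adjusted p = 0.0019; 0.86 in knockouts, adjusted p = 0.0125), whereas its family partner Cxcl10 was lower (-2.15 and -2.07, adjusted p = 0.00573 and 0.0132). Both are ligands of Cxcr3. Ppbp was called higher in BAT in knockouts (2.81, adjusted p = 0.00196) and not in controls (-0.73, adjusted p = 0.307). Ccl17 was at least 6.58-fold lower in control BAT, where it was not well above background on any array, than in control WAT (adjusted p = 0.000618). In knockout BAT, Ccl3 and Ccl22 were not well above background on any array. Their means there were at least 2.42-fold and 1.89-fold lower than in knockout WAT (adjusted p = 0.0389 and 0.107). For both ligands the groups overlapped, with knockout WAT 4 among the knockout BAT samples. Cxcl12 has 2 probes for different transcript variants, and they ran opposite ways between depots in controls, 0.66 and -0.55.

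**Figure D4:**
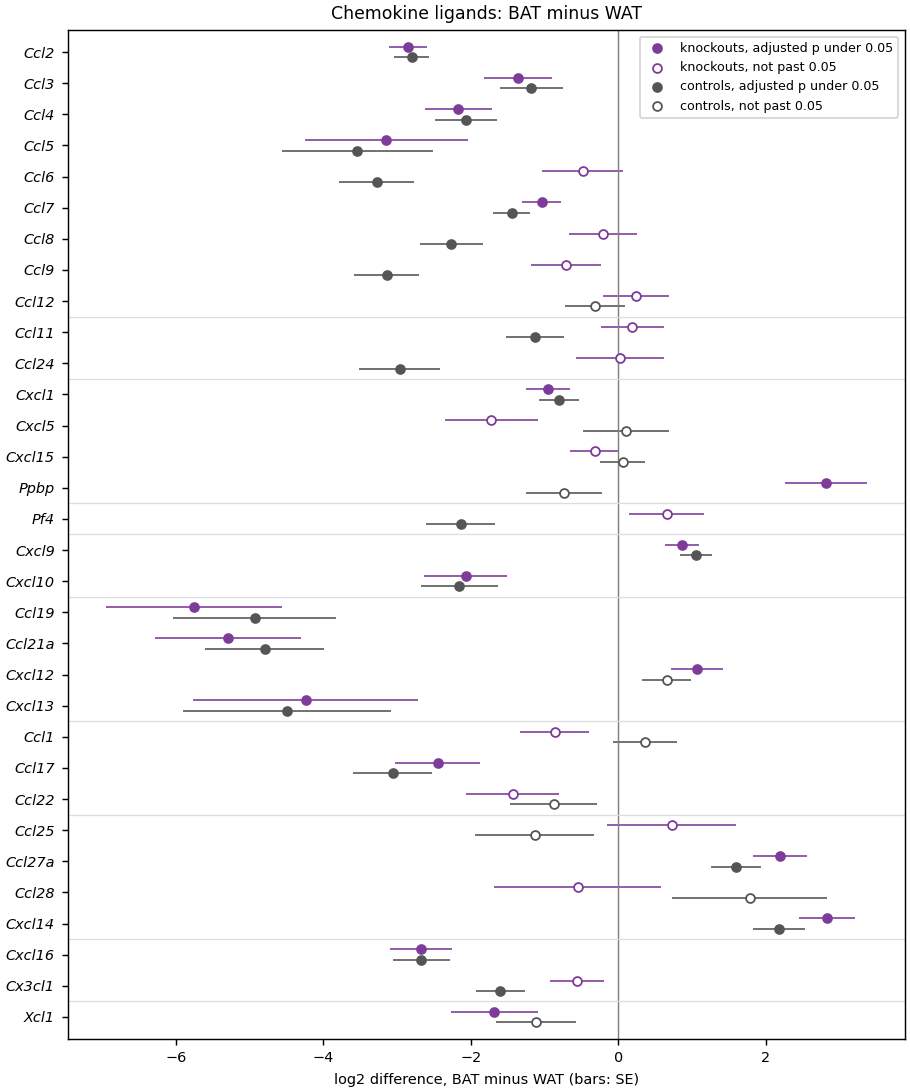
Log2 difference, BAT minus WAT, of the 32 ligands tested, in knockouts and controls (points), with bars of 1 SE. Filled symbols passed an adjusted p of 0.05. Ccl2, Cxcl16, Ccl19, Ccl21a and Cxcl13 lie to the left in both genotypes, Cxcl14, Ccl27a and Cxcl9 to the right, and Ccl6, Ccl8, Ccl9, Ccl24 and Pf4 lie far to the left in controls alone.

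Receptors and inducers of the ligands were taken from fixed lists. Of 18 signalling receptors, 16 were measured, with 0 called by limma in the knockout comparison of either depot. In knockout WAT 14 had positive and 2 negative differences (median 0.67, against 0.24 over all features). In knockout BAT 11 were positive and 5 negative (median 0.16, against 0.10). Of all features, 66.5% were positive in WAT and 60.2% in BAT. Ccr2, the monocyte receptor of Ccl2 and Ccl7, had the smallest adjusted p in WAT at -1.12 ± 0.38 (0.233), with levels of -1.23 to -0.70 in knockout WAT and -0.88 to 0.89 in control WAT. Ccr10 and Cxcr3 differed by 0.91 and 1.02 in WAT. In BAT, Cxcr3 and Cxcr6 differed by 0.74 and 0.76, both with every knockout above every control. Between depots, 1 receptor was called higher and 6 lower in control BAT, and 0 and 9 in knockout BAT. Of all features, 19.1% were called higher and 14.3% lower in control BAT, and 16.7% and 13.9% in knockout BAT.

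Atypical receptors take up chemokines without G protein signalling, and 5 of 6 were measured, with 0 called in the knockout comparisons (median -0.31 in WAT and 0.15 in BAT). In WAT, 2 had positive and 3 negative differences. The list's level was 0.25 to 0.42 in knockout WAT, below the 0.77 to 1.0 of control WAT, and its groups overlapped in BAT. Ackr3, a scavenger of Cxcl12, had levels of -0.78 to 2.25 in knockout WAT and 1.67 to 2.72 in control WAT (-1.57 ± 0.53, adjusted p = 0.233). Ackr4, which removes Ccl19, Ccl21 and Ccl25, had levels of -1.61 to -1.04 in knockout WAT and -1.0 to 0.01 in control WAT (-0.76, adjusted p = 0.396). In BAT it was well above background on 1 of 4 knockout and 0 of 4 control arrays. Ackr1, which binds many inflammatory chemokines on red cells and venules, differed by -0.31 in WAT and 0.15 in BAT, and Ccrl2 by 0.51 in BAT.

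Of 20 inducing cytokine and NF-kB genes, 17 were measured, and all 17 had positive differences in knockout WAT (median 0.78, against 0.24 over all features), with 0 called. In BAT 13 were positive and 4 negative (median 0.16), with 0 called. Il4, Nfkb2 and the NF-kB inhibitor gene Nfkbia, itself induced by both NF-kB and GR, differed by 0.98, 0.89 and 0.72 in WAT (adjusted p = 0.251, 0.269 and 0.290). Nfkbia, Rela and Nfkb2 differed by 0.90, 0.29 and 0.41 in BAT (adjusted p = 0.272, 0.441 and 0.70). The list's level was 1.48, 1.56 and -0.07 in knockout WAT 1-2, 3 and 4, against -0.18 to 0.52 in control WAT, with knockout WAT 1-2 and 3 above every control, as in the B cell and T cell lists.

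Of 15 interferon signalling genes, 13 were measured. In knockout BAT 11 had positive and 2 negative differences (median 0.44, against 0.10 over all features), and the list's level was -0.43 to 0.24, above the -0.75 to -0.47 of control BAT. Ifit3, an interferon-induced antiviral gene, had levels of 0.48 to 0.99 in knockout BAT and -0.20 to 0.22 in control BAT (0.71 ± 0.28, adjusted p = 0.312), and Irf7 differed by 0.58. In WAT, 7 were positive and 6 negative (median 0.14), with Ifit1 at -0.77, Ifit3 at -0.69 and Irf9 at 0.52. None of the 13 was called in either depot. In BAT the list's groups all but touched, with knockout BAT 1 to 4 at 0.24, -0.17, -0.30 and -0.43. In WAT they overlapped, at 0.15 to 0.48 in knockouts and 0.12 to 0.65 in controls. The part of interferon signalling in the Cxcl9 differences was not tested.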

How the data were processed

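Per the file headers, the authors extracted 16 one-colour Cy3 arrays with Agilent Feature Extraction 12.0.0.7 (protocol GE1_1200_Jun14), giving a processed intensity per spot that had been corrected for background and spatial trend but not scaled across arrays. The deposited value table is the same intensity within a relative difference of 5e-06. An array carried 45018 spots, 1639 of them controls.

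Non-uniform spots and population outliers, as the scanner software marked them, were left out (66 values), and repeat spots were averaged. Levels were log2 processed signals relative to each array's 75th percentile. Probes well above background on at least 3 arrays of at least 1 group were kept. Accessions matched to RefSeq (GRCm38.p6) named 28223 of 41174 probes, for 19096 symbols. The probe with the highest mean level stood for a gene, leaving 16675 genes and 8430 unnamed probes.

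A limma 3.58.1 model (lmFit and eBayes, R 4.3.3) with a mean per group was fitted to 15 samples; two-sided p-values were adjusted by Benjamini-Hochberg across the 25105 features, at a threshold of 0.05. The design text calls the arrays of a group biological replicates; p-values measure the spread between these samples. Ligands described with values in every sample were those called in a knockout comparison, up to 6 with the largest difference among those without overlap, and, between depots, the 5 called with the smallest adjusted p; other ligands are given by role, and up to 3 genes of each pathway list by smallest adjusted p, some of which are not reported here. Remarks on any other ligand were made after its values were seen. The members, lists, tests and alternatives were chosen with earlier results of these data known. A bound for a dim probe uses the lowest signal well above background on each array. Whether replicate numbers paired the samples could not be settled with so few samples per group, and the fit treated all samples as unpaired. Correlations of deviations over samples sharing a number were between -0.479 and 0.267, and 5 of 14 exceeded 0.1. Over samples sharing a slide they were between -0.608 and 0.516, and 7 of 14 exceeded 0.1. The alternative with normexp background correction (offset 50) used the deposited median signal and median background intensities in place of mean signals, which were not used here. The fit was tested on simulated data. Motifs were searched in windows of RefSeq start sites; no protein sequences were used here. Python 3.11.15 with pandas 2.3.3, numpy 2.4.6 and matplotlib 3.10.9 drew the plots, and R used data.table version 1.17.8 and jsonlite 2.0.0.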

Additional observations from a re-analysis of the deposited data

Results flagged for a closer look

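Of 96 sets of 4 samples (a ligand in a group) that were screened with Dixon's criterion, 3 held a sample whose gap to its nearest neighbour was unusually large for the group's range; chance alone marks about 1 set in 20. Ccl5 in control BAT 1 was at -0.55, against 0.17 to 0.27 in the other control BAT samples. Ccl5 in knockout BAT 1 was at 2.09, against 0.53 to 0.73 in the other knockout BAT samples, and Ccl4 in the same sample was at -2.66, against -4.89 to -4.55. Ccl4 was well above background on only 1 of the 4 knockout BAT arrays, so the size of that gap is not settled. Knockout BAT 1 also had the lowest 75th percentile of all arrays (298 intensity units) and the highest level of the T and NK cell list among BAT samples (-0.07). Without knockout BAT 1, the Ccl5 difference in BAT was 0.58.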

How the results depend on the processing

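Alternatives were followed gene by gene for the ligands described with values in every sample and for a few others: none of these changed sign, and none of the 10 depot calls among them was lost. Other ligands did lose depot calls. In knockout against control WAT, 7 ligands were called with knockout WAT arrays 1 and 2 counted as 2 samples, 0 under the other settings, and 0 to 18 when a sample was left out, the 18 without knockout WAT 4. In the interaction this range was 0 to 8, and in knockout BAT 0 to 0. For the depots, 17 to 24 ligands were called in controls and 9 to 22 in knockouts with a sample left out, 8 in knockouts with normexp and 7 in knockouts fitted alone. With slide as a block, 20 were called in controls and 14 in knockouts.

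Counts over all features moved more. In WAT, 15 became 1 with normexp, 24 with quantile normalization, 5 with slide as a block, 0 with WAT fitted alone, 278 with arrays 1 and 2 as 2 samples, 4 without control WAT 1 and 4 (added after seeing the data), and 7 to 9235 with a sample left out. In BAT, 4 became 0 with normexp, without the filter, with slide as a block, without control WAT 1 and 4 or without knockout BAT 1 and 2 (also added later), 12 with BAT fitted alone, 22 with arrays 1 and 2 as 2 samples, and 0 to 84 with a sample left out. In the interaction, 1 became 0 with normexp or without either pair of samples, 2 with quantile normalization or arrays 1 and 2 as 2 samples, and 1 to 4055 with a sample left out. Between depots, 8381 calls in controls became 5272 without control WAT 1 and 4 and 6622 to 10597 with a sample left out; 7683 in knockouts became 3630 with normexp, 2990 fitted alone and 4497 to 11456 with a sample left out. The causes of these changes were not tested, and the fits that left samples out also held fewer samples. Normexp moved the median of all features in BAT from 0.10 to 0.34.

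With the replicate number as a block, 0 ligands were called in WAT and 0 in BAT, 22 between depots in controls and 14 in knockouts. Over all features it gave 10 calls in WAT and 0 in BAT. Whether the numbers pair the samples is not known. Dim probes such as Cxcl5 allowed bounds only.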

Other observations

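Ccl28, a mucosal ligand of Ccr10, lay between -4.57 and -3.89 in knockout BAT and took 2 levels in control BAT, -4.41 and -3.97 in samples 1 and 3 against 0.35 and 0.18 in samples 2 and 4. A single probe measured it, and it was well above background on all 4 control BAT arrays. The knockout difference was -2.19 ± 1.05 (limma adjusted p = 0.396). The named gene whose level followed it most closely over the 15 samples was Cog2 (Pearson r 0.729, a description over samples that share their groups), with levels of only 0.69 to 0.97 in control BAT.

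The 2 probes of Cxcl12, for different transcript variants, had a Pearson correlation of -0.471 over the 15 samples. The probe used ran from 4.13 to 5.20 in knockout BAT, 3.95 to 4.24 in control BAT, 3.0 to 4.56 in knockout WAT and 3.13 to 3.82 in control WAT. Its second probe ran from -1.14 to 0.14, -0.87 to -0.41, -0.89 to 1.34 and -0.90 to 0.85 in the same order of groups.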
